A study of Mus musculus with 6 samples.

Results

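The genes described are 10 of the 18543 in the deposited gene table, 7 integrin chains of lymphocytes (Itgal, Itgb2, Itgb7, Itgae, Itga4, Itgb1 and Itga2) and the adhesion genes Pecam1, Epcam and Icam1. They were picked by symbol, with their levels in all 6 libraries known, so their levels and differences are given as a description and support nothing. Messenger RNA was measured in group 2 innate lymphoid cells (ILC2s), lymphocytes without rearranged antigen receptors that answer epithelial alarmins with type 2 cytokines. The cells were sorted from lungs of C57BL/6 mice aged 8 weeks, 3 libraries labelled Atg5-/- (KO 1 to KO 3) and 3 labelled wild type (WT 1 to WT 3). Mice of both genotypes had received 0.5 µg of recombinant mouse IL-33 into the nose on each of 3 consecutive days, with cells isolated on day 4, so no library is from untreated lung. The sources used here do not say which cells of the Atg5-/- mice carry the deletion, which exons it removes or whether each library is 1 mouse. P-values below are therefore set against differences among these libraries alone, and those may be technical. Values of several libraries are given in the order of their numbers.

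Integrins are paired surface receptors, each made of an alpha and a beta chain, that bind matrix or ligands on other cells once signals from inside the cell (talin, kindlin and the small GTPase Rap1) switch them to a high-affinity form. In lymphocytes the pair of Itgal and Itgb2 forms LFA-1, which binds ICAM-1. Itga4 pairs with Itgb1 to bind VCAM-1 or with Itgb7 to bind MAdCAM-1, and Itgae pairs with Itgb7 to bind E-cadherin on epithelium. Itga2 pairs with Itgb1 as a collagen receptor. The cells carry ligands as well, among them ICAM-1 and the self-binding molecules PECAM-1 and EpCAM.

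The libraries did not sort by label. Estimated counts summed to 28827545 to 33662979 per library under the KO label and 30094216 to 30761987 under the WT label. Atg5 itself was at 23.0, 25.6 and 52.2 CPM (counts scaled to equal library depth) in libraries KO 1 to KO 3, and at 66.3, 71.8 and 21.8 CPM in libraries WT 1 to WT 3 by label. The level in the library labelled WT 3 thus lay below all 3 KO libraries, which goes against its label. The library labelled KO 3 lay between, above KO 1 and KO 2 and nearer to WT 1 than to KO 2. Atg5 differed by -0.67 with all 6 libraries (adjusted p = 0.478, edgeR) and by -1.03 with WT 3 left out (adjusted p = 0.0489, edgeR). Over 14052 tested genes, the log2 CPM of WT 3 had a Pearson r of 0.991 against KO 1 and of 0.946 against WT 1 (across genes, which are not independent replicates), while KO 3 had an r of 0.979 against KO 1 and of 0.933 against WT 1. Every difference is therefore one between labels. Fits without WT 3 drop a library chosen for its values in these data. Their p-values can be too small and are given as a description. Summed CPM of the 16 ILC2 markers was 11661 to 15765 under the KO label and 15765 to 19075 under the WT label. Il5 gave much of these sums, at 5352 to 9194 CPM under the KO label and 8242 to 9148 CPM under the WT label. Against WT 1 and WT 2, most single markers were lower in the KO libraries, and a few were higher, nearly level or overlapped. Thy1, a surface marker of ILC2s, was at 0.670 to 2.87 CPM under the KO label and 1.76 to 9.85 CPM under the WT label. Gata3 was at 900 to 927 and 964 to 1559 CPM. Il13 was at 286 to 367 CPM under the KO label and 99.0 to 355 CPM under the WT label. Il7r was at 97.9 to 106 and 93.1 to 103 CPM. Fewer cells of a type and less RNA per cell cannot be told apart in such bulk libraries.

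The promoter windows of Icam1, Itgb7 and Epcam are shown because Icam1 was higher, and Itgb7 and Epcam lower, under the KO label. Their windows could be read. They were picked with these differences known, so no contrast of motifs between them is read. Each holds 250 bases before and 50 after the start, 5′ to 3′ on the gene's strand, from RefSeq on the GRCm38.p6 build. Capitals mark letters that match a searched motif on either strand.
Icam1, chr9:21015690-21015989, forward strand: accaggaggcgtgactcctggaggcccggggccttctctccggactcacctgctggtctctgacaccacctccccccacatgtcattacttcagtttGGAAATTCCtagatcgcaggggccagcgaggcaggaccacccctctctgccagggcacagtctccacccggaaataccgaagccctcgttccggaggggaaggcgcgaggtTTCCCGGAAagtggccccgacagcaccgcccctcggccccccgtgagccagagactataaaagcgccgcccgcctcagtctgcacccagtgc
Itgb7, chr15:102231886-102232185, reverse strand: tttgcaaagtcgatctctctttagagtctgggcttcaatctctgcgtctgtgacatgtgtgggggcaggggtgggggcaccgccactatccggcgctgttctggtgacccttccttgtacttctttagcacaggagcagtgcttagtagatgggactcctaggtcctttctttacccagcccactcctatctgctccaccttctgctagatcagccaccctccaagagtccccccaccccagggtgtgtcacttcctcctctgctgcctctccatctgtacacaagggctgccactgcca
Epcam, chr17:87635729-87636028, forward strand: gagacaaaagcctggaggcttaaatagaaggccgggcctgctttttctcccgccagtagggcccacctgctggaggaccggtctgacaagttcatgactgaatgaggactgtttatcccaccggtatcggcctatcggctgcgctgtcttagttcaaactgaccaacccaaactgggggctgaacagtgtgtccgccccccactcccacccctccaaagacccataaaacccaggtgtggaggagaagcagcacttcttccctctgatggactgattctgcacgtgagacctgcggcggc
Icam1 held the letters GGAAATTCC, searched as an NF-kappaB motif together with GGGNNTTTC, from 153 to 145 bases before its start, and TTCCCGGAA, which matches the STAT motif TTCNNNGAA, from 42 to 34 bases before it. The NF-kappaB letters occurred in 4.58% and the STAT letters in 8.3% of 32851 RefSeq promoter windows of the same length. The GATA-factor letters AGATAA, with the variant that starts in T, were in 18.6% of windows. The RUNX letters TGTGGT were in 16.8% and the AP-1 letters TGANTCA in 7.81%. None of these was in the 3 windows shown. Of the 3 other windows that could be read (Itga4, Itgb1 and Itga2), the window of Itga4 held the RUNX letters, as ACCACA on the strand read, from 60 to 55 bases before its start. Pecam1, Itgae, Itgal and Itgb2 were not among the windows. A match is a description of the letters and says nothing about binding.

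LFA-1, the receptor for ICAM-1, had lower RNA for both of its chains under the KO label. Itgal, the alpha chain (chromosome 7, 127296260 to 127335138, forward strand, mm10), was at 267, 249 and 280 CPM in libraries KO 1 to KO 3, against 504, 473 and 275 CPM in libraries WT 1 to WT 3 by label. The libraries labelled WT 1 and WT 2 were high and the library labelled WT 3 lay inside the range of the KO libraries. The log2 difference was -0.65 (SE 0.24) with all 6 libraries and -0.88 (SE 0.09) without the library labelled WT 3. Itgb2, the beta chain shared with the other leukocyte integrins (chromosome 10, 77530252 to 77565708, forward strand), was at 336, 370 and 360 CPM under the KO label, against 638, 634 and 386 CPM under the WT label. Its groups did not overlap, although the library labelled WT 3 lay only just above the highest KO library. Its log2 difference was -0.64 (SE 0.22), and -0.83 (SE 0.08) without the library labelled WT 3. The 2 chains kept to a narrow ratio. Per kb of exon, Itgal RNA was 0.348 ± 0.031 of Itgb2 RNA under the KO label and 0.348 ± 0.018 under the WT label (SD, n = 3 each), with a lowest value of 0.313 and a highest of 0.370 over the 6 libraries.

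Itgb7, the beta chain of the MAdCAM-1 and E-cadherin receptors, was the most abundant integrin chain per length. Its gene lies on chromosome 15 from 102215995 to 102231935, reverse strand, and the promoter letters are those printed above. It was at 475, 519 and 522 CPM in libraries KO 1 to KO 3, against 1083, 1056 and 493 CPM in libraries WT 1 to WT 3 by label. The libraries labelled WT 1 and WT 2 had 2.12 times the mean of the KO libraries, and the library labelled WT 3 lay within the KO range. The log2 difference was -0.80 (SE 0.30), and -1.08 (SE 0.08) without the library labelled WT 3. Per kb of exon Itgb7 stood at percentile 98.7 of tested genes, ahead of Itgb2 (97.3) and Itgb1 (89.5).

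Both alpha partners of Itgb7 had far less RNA. Itgae, which encodes CD103, the chain that binds E-cadherin (chromosome 11, 73090583 to 73147446, forward strand), had 1, 26 and 0 counts in libraries KO 1 to KO 3, against 52, 66 and 15 counts in libraries WT 1 to WT 3 by label. That is 0.0346, 0.774 and 0 CPM under the KO label, against 1.70, 2.16 and 0.497 CPM under the WT label, where 3 counts are 0.0892 to 0.104 CPM. The groups overlapped, since the library labelled KO 2 was above the one labelled WT 3. The fitted log2 difference of -2.39 (SE 1.33), or -2.79 (SE 1.30) with WT 3 left out, rests on these few counts, and the cell-cycle kinase gene Haspin, which lies on the opposite strand inside Itgae, shares no exon base with it. Itga4 (chromosome 2, 79255426 to 79333123, forward strand), the alpha chain of the VCAM-1 and MAdCAM-1 receptors, was at 13.8, 9.70 and 12.7 CPM under the KO label, against 21.2, 17.2 and 11.7 CPM under the WT label. Here too the libraries labelled WT 1 and WT 2 were the highest and the library labelled WT 3 lay among those labelled KO. Its log2 difference was -0.47 (SE 0.27), and -0.67 (SE 0.22) without that library. Itga4 shares 1124 exon bases with Cerkl on the opposite strand, and reads of the pair cannot be told apart without strand. Per kb of exon, Itga4 RNA was 0.00476 ± 0.00102 of Itgb7 RNA under the KO label and 0.00395 ± 0.00074 under the WT label (SD, n = 3 each).

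Itgb1, the beta chain shared by most matrix receptors, had the smallest difference of the 10 genes. Its gene lies on chromosome 8 from 128685654 to 128733200, forward strand. It was at 193, 178 and 181 CPM in libraries KO 1 to KO 3, against 199, 194 and 179 CPM in libraries WT 1 to WT 3 by label. The groups overlapped, and the highest library was 1.12 times the lowest. The log2 difference was -0.05 with a 95% interval from -0.35 to 0.24, and -0.09 (-0.29 to 0.11) without the library labelled WT 3. With Itgb7 lower and Itgb1 level, the ratio of Itgb7 to Itgb1 per kb was 3.63, 4.30 and 4.25 under the KO label, against 8.04, 8.02 and 4.05 under the WT label.

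Itga2, the alpha chain of the collagen receptor with Itgb1 and a marker of NK cells (chromosome 13, 114833081 to 114932100, reverse strand), was near the limit of counting. It had 27, 19 and 0 counts in libraries KO 1 to KO 3, against 96, 120 and 1 in libraries WT 1 to WT 3 by label. The groups overlapped because of the library labelled WT 3, and a log2 difference of -2.24 had an SE of 1.52. With WT 3 left out it was -2.81 (SE 1.02). Summed NK cell and ILC1 markers, of which 4 of 10 were in the table and each of the 4 was at 0 in at least 1 library, came to 0.520 to 1.05 CPM under the KO label and 0.895 to 3.76 CPM under the WT label. Their part in the Itga2 values was not tested.

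**Figure D1:**
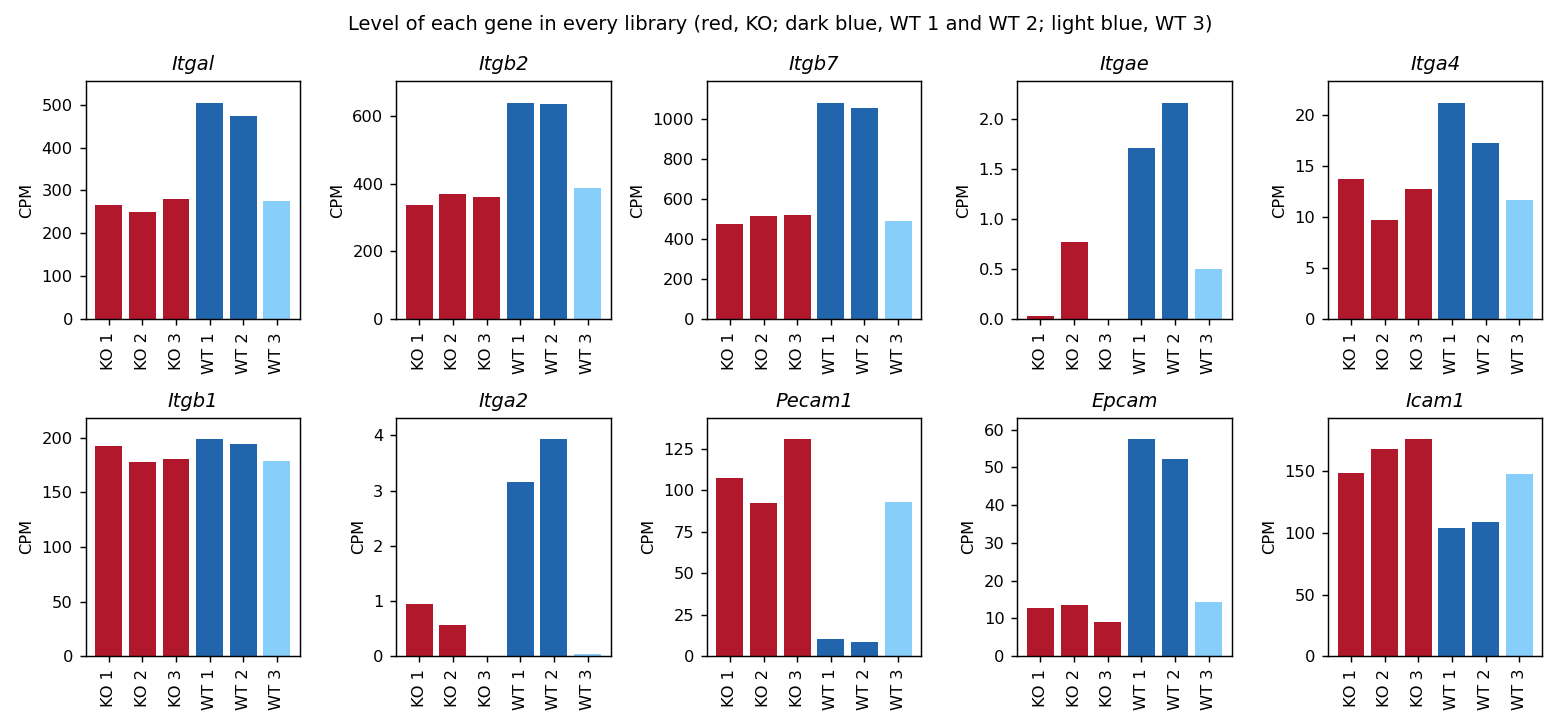
Bars give CPM (linear axes from 0, a scale of its own in each panel) of the 10 genes in each library, the 3 labelled KO left of the 3 labelled WT. The library labelled WT 3 stands at the height of the KO bars for Itgal, Itgb7 and Pecam1, while Itgb1 is nearly level from 178 to 199 CPM.

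Pecam1, Epcam and Icam1 went in different directions. Pecam1 (chromosome 11, 106654217 to 106750628, reverse strand) encodes CD31, a self-binding molecule of endothelium and leukocytes that carries inhibitory signalling motifs. It was at 107, 92.0 and 131 CPM in libraries KO 1 to KO 3, against 10.4, 8.54 and 93.1 CPM in libraries WT 1 to WT 3 by label. This was the widest split of the 10 genes, with 11.6 times more CPM in the KO libraries than in those labelled WT 1 and WT 2, and it did not follow the labels because the library labelled WT 3 lay inside the KO range. Its log2 difference was 1.56 (SE 0.88) with all 6 libraries and 3.55 (SE 0.20) without the library labelled WT 3. Of 12 endothelial markers fixed as a list, 6 were in the table and 5 of these were at 0 in at least 1 library. Their summed level was 2.77 to 3.78 CPM under the KO label and 2.55 to 3.22 CPM under the WT label.

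Epcam, a self-binding adhesion molecule best known from epithelium (chromosome 17, 87635979 to 87651106, forward strand), was at 12.6, 13.7 and 8.90 CPM under the KO label, against 57.4, 52.3 and 14.3 CPM under the WT label. The groups did not overlap, but the library labelled WT 3 lay just above the KO libraries. The log2 difference was -1.82 (SE 0.50), and -2.22 (SE 0.20) without that library. Of 13 epithelial markers 7 were in the table, 5 of them at 0 in at least 1 library, with sums of 4.63 to 21.2 CPM under the KO label and 6.40 to 24.4 CPM under the WT label. The high KO sum came from the club cell gene Scgb1a1, at 15.0 CPM in the library labelled KO 2. Napsa, an aspartic protease of alveolar epithelium, was at 3.95, 4.76 and 3.64 CPM under the KO label, against 21.8, 17.5 and 4.84 CPM under the WT label, the same order of libraries as for Epcam. All KO libraries lay below WT 1 and WT 2 in 30.2% of all genes. How many genes share the full order of libraries was not computed. The keratin genes Krt8 and Krt18 stayed at or below 0.819 CPM in every library. The part of epithelial RNA in the Epcam values was not tested.

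Icam1, the ligand of LFA-1 and a classical NF-kappaB target (chromosome 9, 21015985 to 21028817, forward strand), went the other way from its receptor. It was at 149, 168 and 176 CPM in libraries KO 1 to KO 3, against 104, 109 and 148 CPM in libraries WT 1 to WT 3 by label. The groups did not overlap, but the library labelled WT 3 lay only just below the lowest KO library. Its log2 difference was 0.45 (SE 0.18), and 0.63 (SE 0.10) without that library. An antisense gene, Gm47079, shares 511 exon bases with Icam1, and its reads cannot be told apart without strand.

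**Figure D2:**
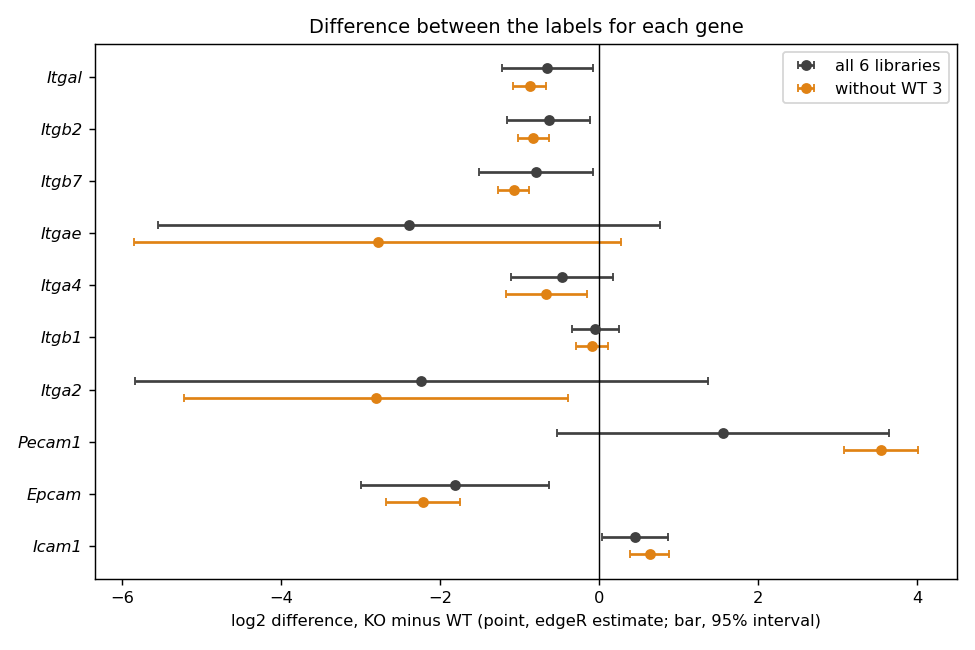
Points give the edgeR log2 difference, KO minus WT, of each gene with all 6 libraries (grey) and without the library labelled WT 3 (orange), and bars the 95% interval. Pecam1 stands at 1.56 with that library and 3.55 without it, and Itgb1 near 0 in both.

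Of the 10 genes, all of which passed the low-count filter, 8 had a negative and 2 a positive difference with all 6 libraries, with a median of -0.65 against 0.02 over all tested genes. By edgeR's quasi-likelihood test (Benjamini-Hochberg over all genes, threshold 0.05) 0 of the 10 passed, as did 0% of the 14052 genes. Of these genes 2026 (14.4%) had an unadjusted p under 0.05. With DESeq2 325 genes (2.31%) passed, 2.21% of all genes being lower, and Epcam was the 1 of the 10 among them. Neither limma fit passed any gene. In 3 of the 10 (Itgb2 and Epcam lower, Icam1 higher) the KO and WT libraries did not overlap, beside 18.5% of all tested genes (9.22% lower and 9.26% higher). With the library labelled WT 3 left out, 7 of the 10 passed, beside 33.9% of 14743 genes: Pecam1 and Icam1 higher (17.7% of all genes) and Itgb7, Itgal, Itgb2, Itga4 and Epcam lower (16.1%). All 10 then had KO libraries apart from those labelled WT 1 and WT 2, as had 60.8% of all genes (30.2% lower and 30.6% higher). Without both libraries numbered 3, 8 of the 10 passed, Itga2 being added on the lower side, beside 45.4% of all genes (22.7% lower and 22.7% higher). Since the genes were chosen with these values known, nothing is read from the counts.

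The library labelled WT 3 lay nearer on the log2 scale to the mean of the KO libraries than to that of the libraries labelled WT 1 and WT 2 for all 10 genes, and for 76.3% of tested genes. The level of WT 3 was inside the KO range for 7 of the 10. The exceptions were Itgb2, Epcam and Icam1, where it was just outside on the WT side. The share of all genes with WT 3 inside the KO range was not computed, so nothing is read from this count. For Itgb7 its log2 level differed by -0.03 from the KO mean and by -1.12 from the mean of WT 1 and WT 2, and for Pecam1 by -0.22 and by 3.24.

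**Figure D3:**
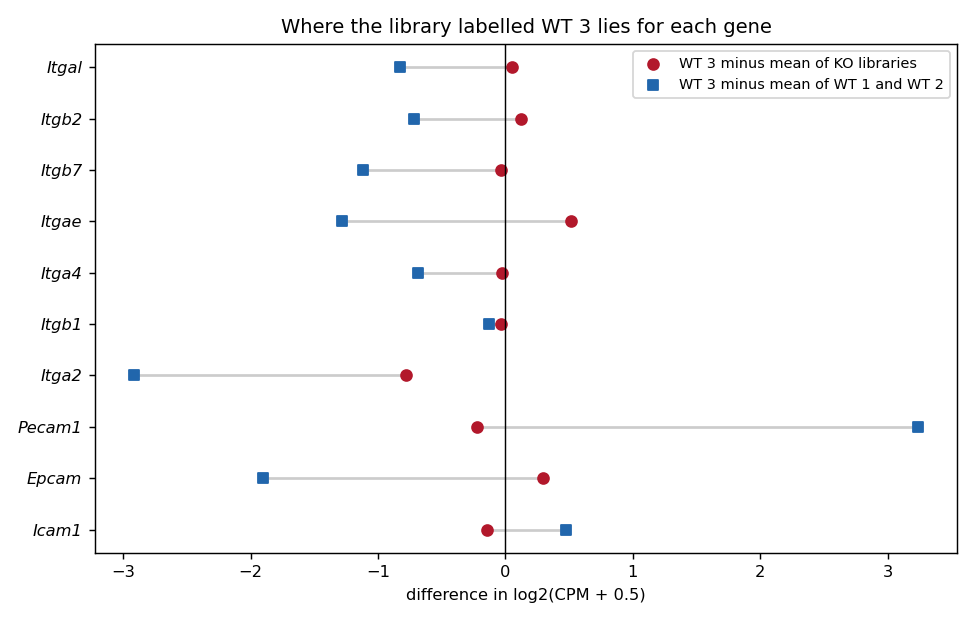
For each gene, the difference in log2(CPM + 0.5) between the library labelled WT 3 and the mean of the KO libraries (red circles) or of the libraries labelled WT 1 and WT 2 (blue squares). All 10 circles lie nearer to 0 than their squares.

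Set side by side per length, the integrin RNA of these cells was dominated by the chains of LFA-1 and by Itgb7. Summed over the 7 beta chains in the table, the level was 352 ± 13.2 CPM per kb under the KO label and 582 ± 196 CPM per kb under the WT label (SD, n = 3 each), where the library labelled WT 3 had 355. Itgb7 made up 51.8% ± 0.758 of that sum under the KO label and 53.7% ± 3.17 under the WT label, and Itgb2 33.1% ± 0.625 and 31.9% ± 3.26. Itgb1 made up 12.8% ± 1.05 under the KO label, against 6.92%, 6.92% and 12.4% in libraries WT 1 to WT 3 by label. Among 15 alpha chains Itgal held 78.6% ± 1.54 of the summed RNA under the KO label and 76.2% ± 1.75 under the WT label. Itga4 held 1.67% ± 0.211 and 1.45% ± 0.145, and Itgae at most 0.492% in any library. The order of levels per kb, averaged over libraries, was Itgb7, Itgb2, Itgal, Itgb1, Icam1, Epcam, Pecam1, Itga4, Itga2 and Itgae. Within it Epcam and Pecam1, at means of 12.1 and 11.8 CPM per kb, changed places between libraries, as did Icam1 and Itgal (38.5 and 37.9 CPM per kb in KO 2), Epcam and Icam1 (26.2 and 23.9 CPM per kb in WT 1), and Itgal and Itgb1, whose ranges overlapped (37.9 to 76.8 and 43.5 to 48.7 CPM per kb). So did Itga2 and Itgae, both at most 0.551 CPM per kb in every library. The order also depends on the length used. Pecam1 has an exon union of 6228 bases, against 2977 in the transcript with the longest coding sequence. For Icam1 these lengths are 4360 and 2535 bases.

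**Figure D4:**
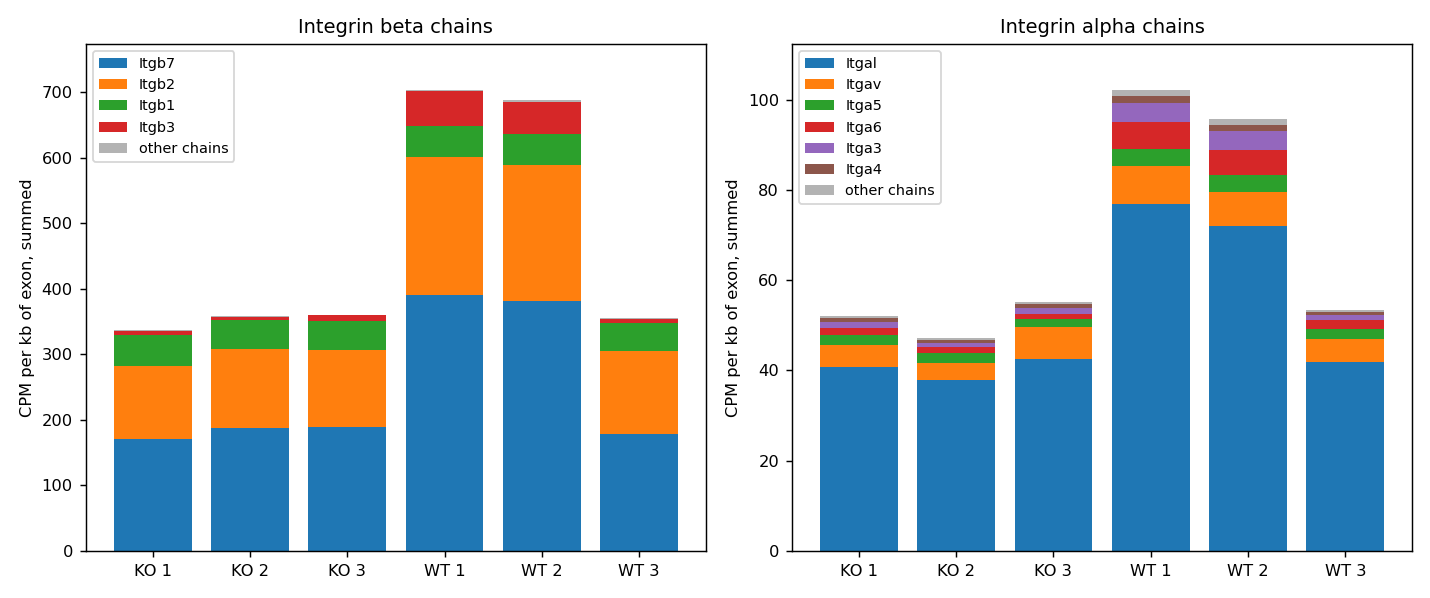
Stacked bars give CPM per kb of exon for integrin beta chains (left) and alpha chains (right) in each library, KO left of WT. Itgb7 and Itgb2 fill most of each beta bar and Itgal most of each alpha bar, and the bar of the library labelled WT 3 has the height of the KO bars.

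Among the other integrin chains Itgb3, Itga6, Itga3 and Itga5 fell with WT 3 left out. Of 19 chains listed, 15 were in the table and 8 were tested with all 6 libraries. By edgeR 0 of these 8 passed (median -0.68, 4 with an unadjusted p under 0.05), and by DESeq2 2 fell, Itga6 (adjusted p = 0.00645) and Itgb3 (adjusted p = 0.0189). Among all genes 14.4% had such an unadjusted p by edgeR, and 2.21% fell by DESeq2. Of 9 tested by edgeR with WT 3 left out, 4 fell and 0 rose, beside 16.1% and 17.7% of all genes (median -0.78 against 0.02 over all genes). The smallest edgeR adjusted p of any tested gene with all 6 was 0.342. WT 3 was left out for its values, and genes with the largest differences in that same fit were named. Adjusted p-values without WT 3, here and for the lists below, can therefore be too small and only describe. Itgb3, the beta chain of the receptor for vitronectin and osteopontin, was at 37.3, 29.8 and 52.2 CPM under the KO label, against 314, 287 and 34.8 CPM under the WT label. With WT 3 left out it fell by 2.91 (SE 0.22, adjusted p = 0.000171, edgeR). Itga6, a laminin receptor chain, was at 13.2, 12.6 and 10.4 CPM under the KO label, against 53.8, 50.7 and 18.1 CPM under the WT label, and fell by 2.11 (SE 0.15, adjusted p = 0.000149, edgeR). Itga3 and Itga5, chains of laminin and fibronectin receptors, fell by 1.86 and 0.85 in the same fit (adjusted p = 0.00143 and 0.0125, edgeR). With all 6 libraries the log2 differences were -2.41 for Itgb3, -1.76 for Itga6, -1.45 for Itga3 and -0.65 for Itga5. Itgav, the alpha partner of Itgb3, was at 52.7, 39.9 and 74.5 CPM under the KO label, against 90.3, 80.1 and 54.7 CPM under the WT label. It did not pass, at -0.43 with all 6 libraries (adjusted p = 0.419, edgeR) and -0.61 with WT 3 left out (adjusted p = 0.0919, edgeR). Without both libraries numbered 3 Itgav was at -0.87 and passed (adjusted p = 0.000607, edgeR), again only as a description.

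Genes that activate integrins or link them to actin had a median of -0.34 over 32 tested genes with all 6 libraries. By edgeR 0 of them passed (9 had an unadjusted p under 0.05), and by DESeq2 2 fell, Rasgrp1 (adjusted p = 0.0276) and Rap1gap (adjusted p = 0.0318). The shares over all genes were 14.4% with such an unadjusted p and 2.21% lower by DESeq2. With WT 3 left out, 3 rose by edgeR (Rapgef1, Ptk2 and Crk) and 17 fell of 32, beside 17.7% and 16.1% of all genes, with a median of -0.43. Tln1, which encodes talin, was at 234, 289 and 262 CPM in libraries KO 1 to KO 3, against 482, 436 and 297 CPM in libraries WT 1 to WT 3 by label, and fell by 0.80 (SE 0.11, adjusted p = 0.00167, edgeR). Fermt3, the kindlin of blood cells, was at 539, 534 and 496 CPM under the KO label, against 774, 765 and 588 CPM under the WT label, and fell by 0.55 (adjusted p = 0.00216, edgeR). For talin and kindlin the library labelled WT 3 lay above all KO libraries. Rasgrp1, an exchange factor of Ras-family GTPases, was at 30.8, 28.1 and 27.2 CPM under the KO label, against 117, 117 and 32.0 CPM under the WT label, and fell by 2.02 (SE 0.10, adjusted p = 4.54e-05, edgeR). Rap1gap and Sipa1, which switch Rap1 off, fell by 3.68 and 0.86 (adjusted p = 0.000715 and 0.00243, edgeR), and Rap1b itself by 0.29 (adjusted p = 0.0485, edgeR). Skap1, an adaptor that couples antigen receptors to integrins, fell by 0.62 (adjusted p = 0.00334, edgeR). These differences are those with WT 3 left out. With all 6 libraries they were -0.63 for Tln1, -0.44 for Fermt3, -1.63 for Rasgrp1, -3.14 for Rap1gap, -0.67 for Sipa1, -0.22 for Rap1b and -0.45 for Skap1.

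Of 18 ligands and counter-receptors 13 were in the table. With WT 3 left out, 3 of 11 tested by edgeR fell and 0 rose, beside 16.1% and 17.7% of all genes. With all 6 libraries 0 of 9 passed by edgeR (median -0.67, 3 with an unadjusted p under 0.05), and by DESeq2 1 fell, Spp1 (adjusted p = 0.0142). The shares over all genes were 14.4% with such an unadjusted p and 2.21% lower by DESeq2. Spp1, which encodes osteopontin, was at 0.346, 0.595 and 0.255 CPM under the KO label, against 8.46, 10.1 and 0.232 CPM under the WT label, and fell by 4.51 with WT 3 left out (SE 0.41, adjusted p = 0.000318, edgeR). Thbs1, which encodes thrombospondin 1, a ligand of several integrins and of CD47, was at 1.84, 0.773 and 2.30 CPM under the KO label, against 31.2, 30.7 and 0.298 CPM under the WT label, and fell by 4.24 (SE 0.39, adjusted p = 0.000341, edgeR). In both genes the library labelled WT 3 had the lowest level of the 6. For Spp1, WT 3 and KO 3 (0.232 and 0.255 CPM) cannot be ranked at this depth. Icam4 fell by 2.09 (SE 0.40, adjusted p = 0.0069, edgeR), while Icam2, another LFA-1 ligand, was at 33.8, 38.2 and 24.3 CPM under the KO label, against 25.7, 26.1 and 36.3 CPM under the WT label. Icam2 did not pass, at 0.13 with all 6 libraries (adjusted p = 0.772, edgeR) and 0.31 with WT 3 left out (adjusted p = 0.282, edgeR). The differences of Spp1, Thbs1 and Icam4 with all 6 libraries were -3.96, -3.66 and -1.74. Cdh1, the E-cadherin ligand of the Itgae receptor, was at most 0.852 CPM, and Vcam1 at most 1.08 CPM, in any library.

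Among selectin ligands, tetraspanins and other adhesion receptors, 0 of 24 passed with all 6 libraries by edgeR (median -0.58) and 0 by DESeq2. An unadjusted edgeR p under 0.05 was found for 12 of the 24, beside 14.4% of all genes. With WT 3 left out 3 rose and 14 fell of 25 by edgeR, beside 17.7% and 16.1% of all genes (median -0.65). Cd53, a tetraspanin of leukocytes, was at 1225, 1100 and 1136 CPM under the KO label, against 2500, 2755 and 1224 CPM under the WT label, and fell by 1.18 with WT 3 left out (adjusted p = 0.000171, edgeR). Selplg, which encodes the P-selectin ligand PSGL-1, was at 802, 857 and 771 CPM under the KO label, against 1667, 1629 and 801 CPM under the WT label, and fell by 1.02 (adjusted p = 0.000217, edgeR). Cd82, another tetraspanin, fell by 0.52 (adjusted p = 0.0218, edgeR), Cd48, a ligand of CD2 and 2B4, by 1.64 (adjusted p = 0.00498, edgeR), and L1cam by 1.38 (adjusted p = 0.000872, edgeR). The genes that rose were Cd44, the receptor for hyaluronan, by 1.02 (adjusted p = 0.00021, edgeR), Alcam, a ligand of CD6, by 1.68 (adjusted p = 0.000862, edgeR), and Cd9 by 4.17 (adjusted p = 0.00175, edgeR). Cd9, a tetraspanin partner of integrins, was at 3.19, 3.66 and 7.47 CPM under the KO label, against 0.295, 0.229 and 4.08 CPM under the WT label. With all 6 libraries the differences were 0.57 for Cd44, 1.02 for Alcam and 1.64 for Cd9 (adjusted p = 0.372, 0.347 and 0.424, edgeR). They were -0.90 for Cd53, -0.75 for Selplg, -0.39 for Cd82, -1.31 for Cd48 and -1.08 for L1cam. Over the 4 lists together, 6 of 77 tested genes rose (17.7% of all genes did) and 38 fell (16.1%) without the library labelled WT 3, by edgeR. With all 6, 0 of 73 passed by edgeR, and 28 had an unadjusted p under 0.05 (14.4% of all genes did). By DESeq2 5 fell (2.21% of all genes did).

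**Figure D5:**
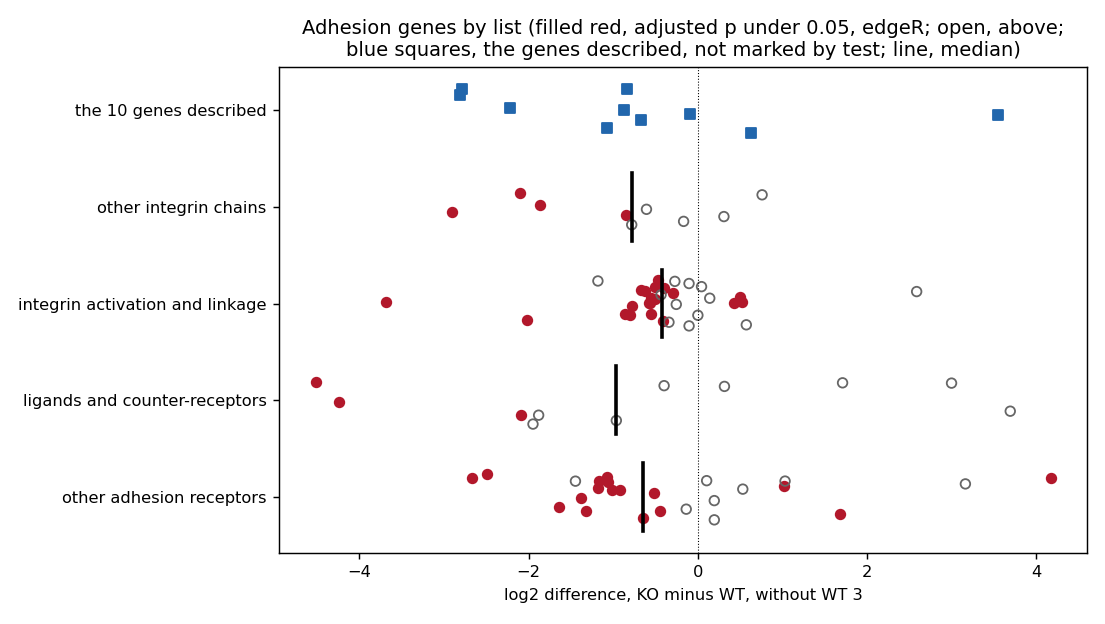
Points give the log2 difference, KO minus WT, without the library labelled WT 3, for the 10 genes described (blue squares) and 4 lists of other adhesion genes, where filled red circles passed the threshold and open ones did not. The black lines are medians, from -0.43 to -0.96 in the 4 lists.

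Over the 6 libraries the genes whose log2 levels were most like Pecam1 were Il6, Lars and Rcc1l (Pearson r of at least 0.999, n = 6). Il6 was at 69.0, 57.8 and 96.3 CPM in libraries KO 1 to KO 3, against 2.03, 1.31 and 55.2 CPM in libraries WT 1 to WT 3 by label. Most like Epcam were Ly6e, Ppp1r18 and Cnp (r of at least 0.999), and most like Itga2 were Tkfc, Trim56 and Rgs10 (r of at least 0.992). With 2 libraries far from the other 4, such values are high for many genes, and they describe only the order of these libraries.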

How the data were processed

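Libraries were made from 10 ng of RNA each, per the labels' protocols, and groups and replicate numbers come from the sample titles. CASAVA 1.8.2, STAR, Partek and mm10 are named, without role or order, in the submitters' processing notes. For 18543 genes the deposited values are estimated counts. Of these, 47.1% to 48.5% per library were whole (within 1e-06), so some reads were split over several features. The sources used here do not state the rule of that split or the use of strand. A deposited normalized signal covers 16322 genes, and each value is 1 more than the estimated count, over a factor set for each library (31.2 to 36.0).

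Estimated counts were rounded to whole numbers. The test was that of edgeR 4.0.16 under R 4.3.3 (TMM, filterByExpr, robust glmQLFit, glmQLFTest, no covariate), with Benjamini-Hochberg adjustment over all tested genes and a threshold of 0.05. Each SE is the size of the log2 difference over the root of its F statistic. CPM use TMM-adjusted library sizes, and 3 counts, the limit that a count of 0 allows, cover counting error only. Levels per kb divide CPM by the union of exons in GENCODE vM21, whose start and end matched those of 16817 genes in the table once the deposited end was reduced by 1 base. The procedure was tested on simulated counts in which no library stood apart from its group. That test does not cover a library such as WT 3. Alternatives were DESeq2 1.42.0 and limma 3.58.1 (voom, and trend on log2 of the signal plus 1), other scalings and filters (none, or 2 CPM in 3 libraries), a fit with the replicate number as a block, one without robust dispersion, and each library, or both numbered 3, left out.

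The genes described, the lists and the tests were chosen with earlier results of these data known. Besides the 10 genes and Atg5, the text names in each adhesion list the 3 tested genes with the highest CPM and the 4 with the largest difference past the threshold at a mean log2 CPM of at least 1. As none passed by edgeR with all 6 libraries, these come from the fit without the library labelled WT 3. It adds the 3 genes most like each of the 3 described genes with the widest range. Rapgef1, Ptk2, Crk, Cd44, Cdh1, Vcam1, Thy1, Gata3, Il13, Il7r, Scgb1a1, Krt8, Krt18 and the genes that overlap a described gene were named after their values were seen. The second NF-kappaB spelling was shortened by 1 base after the matches had been seen, which added no match in the windows read. T cell markers (8 of 9 in the table) summed to 27.6 to 29.4 CPM in KO and 25.6 to 46.6 CPM in WT libraries (most abundant gene Cd3g). Platelet markers (5 of 8) summed to 0.238 to 0.925 CPM in KO and 0.331 to 2.46 CPM in WT libraries (Itga2b). B cell markers (4 of 6) summed to 25.7 to 200.6 CPM in KO and 24.6 to 30.6 CPM in WT libraries (Ighm, at 193.9 CPM in the library labelled KO 3). Myeloid markers (8 of 12) summed to 3.45 to 15.0 CPM in KO and 11.9 to 29.2 CPM in WT libraries (Chil3). Mast cell, basophil and eosinophil markers (8 of 11) summed to 12.7 to 25.3 CPM in KO and 19.6 to 32.0 CPM in WT libraries (Tpsb2). In the lists of the report the most abundant genes were Il5, Egfl7, Napsa and Prf1.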

Additional observations from a re-analysis of the deposited data

How the results depend on the processing

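All 10 genes described kept the sign of their difference under all 17 alternatives, except that Itgae and Itga2 had no value under the filter of 2 CPM. Over the settings the log2 difference ran from -1.10 to -0.64 for Itgb7, -0.91 to -0.53 for Itgal, -0.84 to -0.53 for Itgb2, -0.71 to -0.29 for Itga4, -0.09 to -0.04 for Itgb1, -2.22 to -1.54 for Epcam, 0.33 to 0.63 for Icam1 and 1.09 to 3.55 for Pecam1. Itgae ran from -6.16 to -0.89 and Itga2, which also has few counts, from -3.03 to -0.92. With all 6 libraries edgeR passed 0 genes under every scaling, filter and dispersion setting. DESeq2 passed 325 genes, 1 of the 10 and 5 of the other adhesion genes. Leaving out 1 library gave 0 to 4991 genes, 0 to 7 of the 10 and 0 to 44 other adhesion genes, where every count above 0 came from leaving out the library labelled WT 3. Without both libraries numbered 3 the counts were 6505, 8 and 50. The log2 difference of Icam2 ranged from -0.04 to 0.31 with 1 library left out. It was -0.044 without the library labelled KO 2 and 0.48 without both libraries numbered 3, where it passed, and the cause was not tested. With the replicate number as a block edgeR passed 0 genes, 0 of the 10 and 0 other adhesion genes. Deviations of libraries with the same number correlated at -0.04, 0.02 and -0.01. Under the WT label these deviations mostly reflect the distance of WT 3 from WT 1 and WT 2. They therefore cannot show whether the number pairs libraries. With the length of the transcript with the longest coding sequence in place of the exon union, an alternative chosen after seeing the data, the mean ratio of Itgal to Itgb2 was 0.491 in place of 0.348, and that of Itga4 to Itgb7 0.00603 in place of 0.00435. Genes under about 3 counts, such as Itgae and Itga2 in the library labelled KO 3, cannot be ranked at this depth.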
